A study of Schizosaccharomyces pombe with 8 samples.

Results

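Genes of vesicle traffic were followed in the fission yeast Schizosaccharomyces pombe during brief contact with nitric oxide. They were chosen by name: a gene belonged to the set if its symbol was sec, vps, trs, ypt, bet, apl, apm or aps, alone or followed by digits, or exo70, psy1 or syb1, and if it had a probe set of its own. This gave 98 genes of the 2896 S. pombe genes measured, each read from 1 probe set, and a further 10 genes of the reference table fit the names but were not measured here. The deposited data are 8 Affymetrix Yeast_2 arrays, 2 for each of 4 groups. Wild type cells were strain 972h-, and the deletion cells were strain AV25, which is h- with pap1 replaced by kanMX6. All cells were moved from yeast extract medium into phosphate-buffered saline, and control and treated sets were taken from one flask, per the labels. Treated cells received 3 mM detaNONOate, which gives off nitric oxide while it breaks down, for 15 min. Control cells were given decomposed detaNONOate, so a control group is not an untouched culture. The 2 arrays of each group are biological replicates by their labels, and the deletion is represented by 1 strain. Each array measured RNA of a whole culture, so fewer cells with a message and less of it per cell cannot be told apart.

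Proteins made at the endoplasmic reticulum enter it through the Sec61 channel and leave in vesicles with a COPII coat, while COPI vesicles carry material back from the Golgi. Rab GTPases and tethering complexes such as TRAPP, the exocyst, GARP and HOPS bring a vesicle to its target. SNARE proteins then pull the membranes together, and NSF (Sec18) with its partner Sec17 takes the SNAREs apart again. Clathrin adaptors, retromer and the ESCRT proteins sort cargo at the Golgi and endosomes. Pap1 is a transcription factor of the bZIP family, known for its role under oxidative stress, and the design asks how the response to nitric oxide looks without it.

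Not every gene caught by its letters belongs to the pathway. The gene vps71 encodes a subunit of the SWR1 chromatin complex, aps1 a nucleotide hydrolase and trs1 an aminoacyl-tRNA synthetase. They were kept in all counts because they met the rule. Conversely muk1, listed under its older name vps902 in the array annotation, was outside the set after symbols were brought up to date.

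Values are log2 expression per probe set. The background level, taken as the 95th percentile of mean signal among the arrays' S. cerevisiae probe sets, was 3.41. The means of all genes in the set but trs31 over the 8 arrays were above it. The TRAPP gene trs31 read between 1.98 and 2.78 in every array, so its calls are counted but not read as changes. Over the set the median of an array lay between 7.90 and 8.23, beside 7.85 to 7.96 for all S. pombe genes. The median standard deviation between the 2 arrays of a group was 0.031 to 0.049 in the 4 groups. The deleted gene pap1 read 9.90 and 9.93 in control wild type cells, 10.11 and 10.09 in treated wild type cells, 2.33 and 2.35 in control deletion cells, and 2.14 and 2.20 in treated deletion cells.

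The signal balance along most control transcripts moved with treatment. It is given as a 3' to 5' index, the 3' signal less the 5' signal, as a median over 7 S. pombe control transcripts. It grows when labelled RNA does not reach far from the 3' end. Its mean was 1.34 ± 0.08 (log2, SD, n = 2) in control wild type cells and 3.35 ± 0.02 in treated wild type cells, and 1.65 ± 0.01 and 2.64 ± 0.12 in the deletion. The 3' minus 5' signal was higher in treated cells of both strains for 6 of the 7 transcripts. The exception, TFIID, went from 1.22 and 1.23 to -0.35 and -0.40 in wild type and from 1.62 and 1.64 to 0.63 and 0.62 in the deletion. The shift of the median with treatment was 2.01 in wild type cells and 0.99 in deletion cells. Deletion minus wild type was 0.31 in control and -0.71 in treated arrays. The index thus differed in every comparison described here. Because it separates the groups, its part in the changes and the part of treatment cannot be told apart with these arrays.

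In wild type cells nitric oxide was followed by lower messages for the SNAREs of the cell surface, though little for sec9. Messages were also lower for the channel into the endoplasmic reticulum and for 4 of 7 Rab genes, of which 2 rose. Some subunits of TRAPP and HOPS rose, while the TRAPP genes bet5 and bet3 fell by more than any TRAPP gene rose. The syntaxin gene psy1 and the synaptobrevin gene syb1 fell most. The TRAPP II genes trs120 and trs130 were among the few that rose by 2-fold or more. In limma 39 of the 98 genes rose and 39 fell at an adjusted p under 0.05, and 20 did not pass. Over all 2896 genes 80.2% were called, 40.5% higher and 39.7% lower. The median change was 0.00015 in the set and 0.017 over all genes (log2), so the shares called in the set are near those of all genes. By at least 2-fold 4 genes of the set rose and 15 fell, where the shares over all genes were 5.52% and 12.4%. With the 3' to 5' index as a covariate and a treatment effect common to both strains, 20 genes of the set were called, the value of psy1 was -0.43 (limma adjusted p = 0.263) and that of syb1 0.71 (adjusted p = 0.150), neither past the threshold. Of the 39 risen genes 1 was called higher in that fit, trs120 (0.54, adjusted p = 0.0138). Another 6 were called lower, apl5, vps11 and vps17 among them. Of the 39 fallen genes 3 were called lower, among them vps20 (-1.61, adjusted p = 0.00119), and 6 higher. The shares over all genes were not counted for that fit. The fit has no term for a difference between the strains in response, so such a difference falls to the index. Its values therefore cannot separate the index from the strain.

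Psy1 is the syntaxin of the plasma membrane, on which secretory vesicles fuse. Its message read 9.55 and 9.56 in control wild type cells, 6.15 and 6.36 in treated wild type cells, 9.09 and 8.98 in control deletion cells and 7.19 and 7.30 in treated deletion cells (log2). The treated arrays lay below the control arrays in both strains without overlap, and lowest in wild type. The fall in wild type was 9.85-fold (log2 change -3.30 with a standard error of 0.08 from 2 arrays per group, limma adjusted p = 8.3e-08).

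Its vesicle partner Syb1, the synaptobrevin, showed the same order of groups but for a smaller gap between the controls. The syb1 message read 10.29 and 10.28 in control wild type cells, 7.46 and 7.62 in treated wild type cells, 10.11 and 10.00 in control deletion cells and 9.03 and 9.24 in treated deletion cells. In wild type it fell 6.71-fold (log2 -2.75 ± 0.08, SE, adjusted p = 1.9e-07). The third exocytic SNARE gene, sec9, which encodes the SNAP-25 relative, moved much less. It read 8.07 and 8.06 in control wild type cells and 7.86 and 7.75 in treated wild type cells, a fall of 0.26 on the log2 scale.

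**Figure D1:**
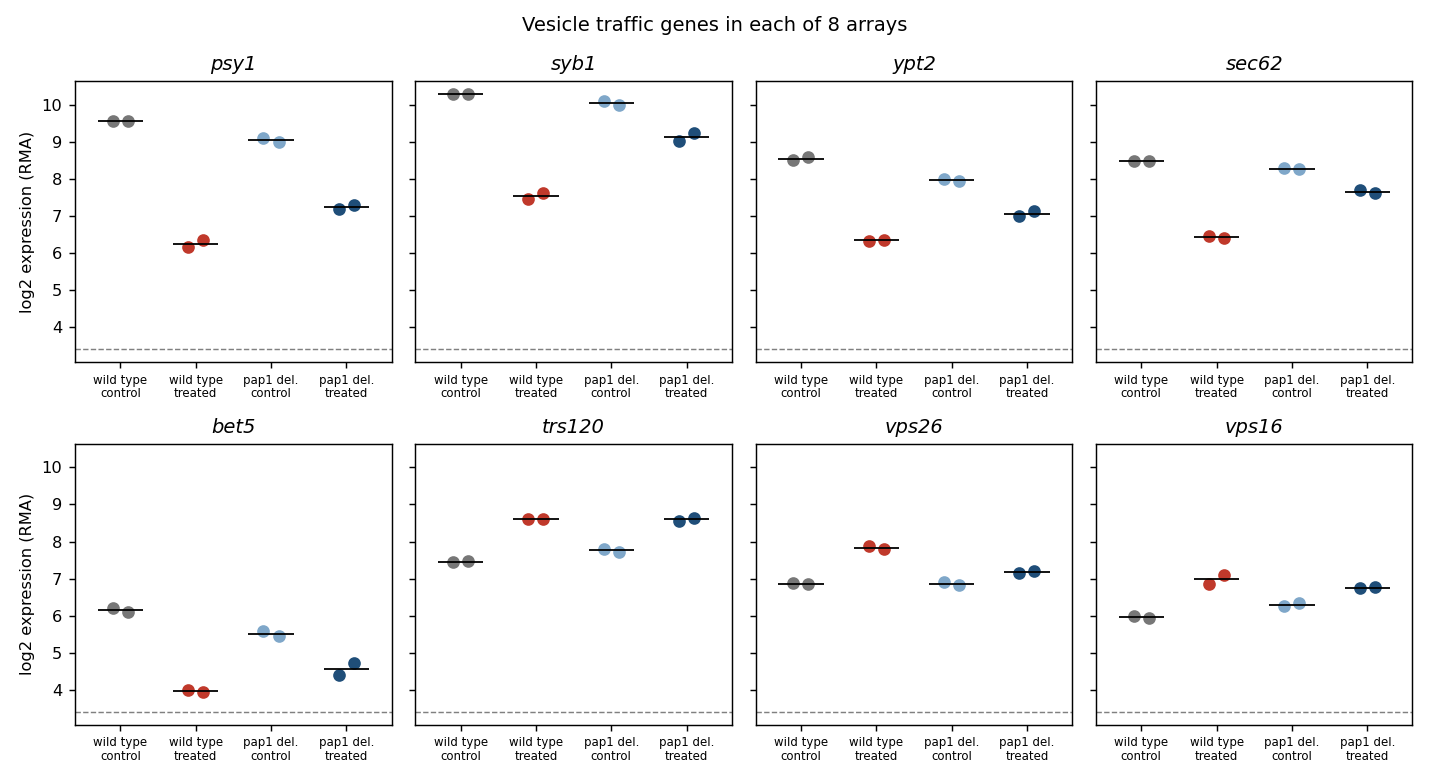
Log2 expression in each of the 8 arrays for 8 genes of the set: points are arrays, bars group means of 2 arrays, and the dashed line the background level of 3.41. The genes psy1, syb1, ypt2, sec62 and bet5 are lowest in treated wild type cells, while trs120, vps26 and vps16 are higher in treated than in control arrays of both strains.

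Of the 11 SNARE and fusion genes 6 fell, 2 rose and 3 did not pass in wild type (median -0.19). Over all genes 39.7% fell and 40.5% rose. The ER-to-Golgi SNARE gene bet1 fell by 1.25 and sec17, the gene of the adaptor that recruits NSF, by 1.08 on the log2 scale. The SNARE gene sec20 fell by 0.19. The NSF gene sec18 itself rose by 0.12 and the SNARE gene sec22 by 0.24. The genes of the Sec1 family proteins that guide SNAREs, sec1 (0.07), vps33 (0.05) and vps45 (0.01), did not pass.

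Genes of the channel and its partners were mostly lower in treated wild type cells, where the index was higher by 2.01. Of 7 genes of translocation and glycosylation 6 fell and 1 rose in wild type, with a median of -1.12. The shares over all genes were 39.7% fallen and 40.5% risen. The post-translational translocation gene sec62 read 8.47 in both arrays of control wild type cells, 6.46 and 6.40 in treated wild type cells, 8.29 and 8.25 in control deletion cells and 7.69 and 7.62 in treated deletion cells. The 4 groups did not overlap, and the fall in wild type was 4.12-fold (log2 -2.04 ± 0.04, SE, adjusted p = 6.5e-08). The gene of the channel subunit itself, sec61, fell 2.86-fold (-1.51 ± 0.07), from 9.58 and 9.50 to 7.91 and 8.13. Other falls were those of sec66 (-1.20), another subunit of the Sec62/Sec63 complex, the signal peptidase gene sec11 (-1.12), sec63 (-0.47) and the signal recognition particle gene sec65 (-0.29). The exception was sec59, the dolichol kinase gene of glycosylation, which rose by 0.15. With the index as a covariate all 7 values were above 0, sec61 (0.74, limma adjusted p = 0.0384) and sec62 (0.70, adjusted p = 0.0213) were called higher, and the other 5 did not pass.

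Among Rab GTPases, the switches that mark each membrane, 4 of 7 fell, 2 rose and 1 did not pass (median -0.22). Calls were common, with 39.7% of all genes fallen and 40.5% risen. The gene of the exocytic Rab Ypt2 read 8.52 and 8.58 in control wild type cells, 6.32 and 6.36 in treated wild type cells, 7.99 and 7.95 in control deletion cells and 7.00 and 7.13 in treated deletion cells. It fell 4.61-fold in wild type (log2 -2.20 ± 0.06, SE, adjusted p = 9.6e-08), and no group overlapped another. The vacuolar Rab gene ypt7 fell 2.39-fold (-1.26 ± 0.05), while its near relative ypt71 rose by 0.32. The gene of the post-Golgi Rab Ypt3 fell by 0.63 on the log2 scale and ypt4 by 0.22. The gene of the early secretory Rab Ypt1 rose by 0.18, and the endosomal ypt5 (0.08) did not pass. Of the genes for Rab exchange factors, sec2 (0.26) and vps901 (0.17) rose.

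**Figure D2:**
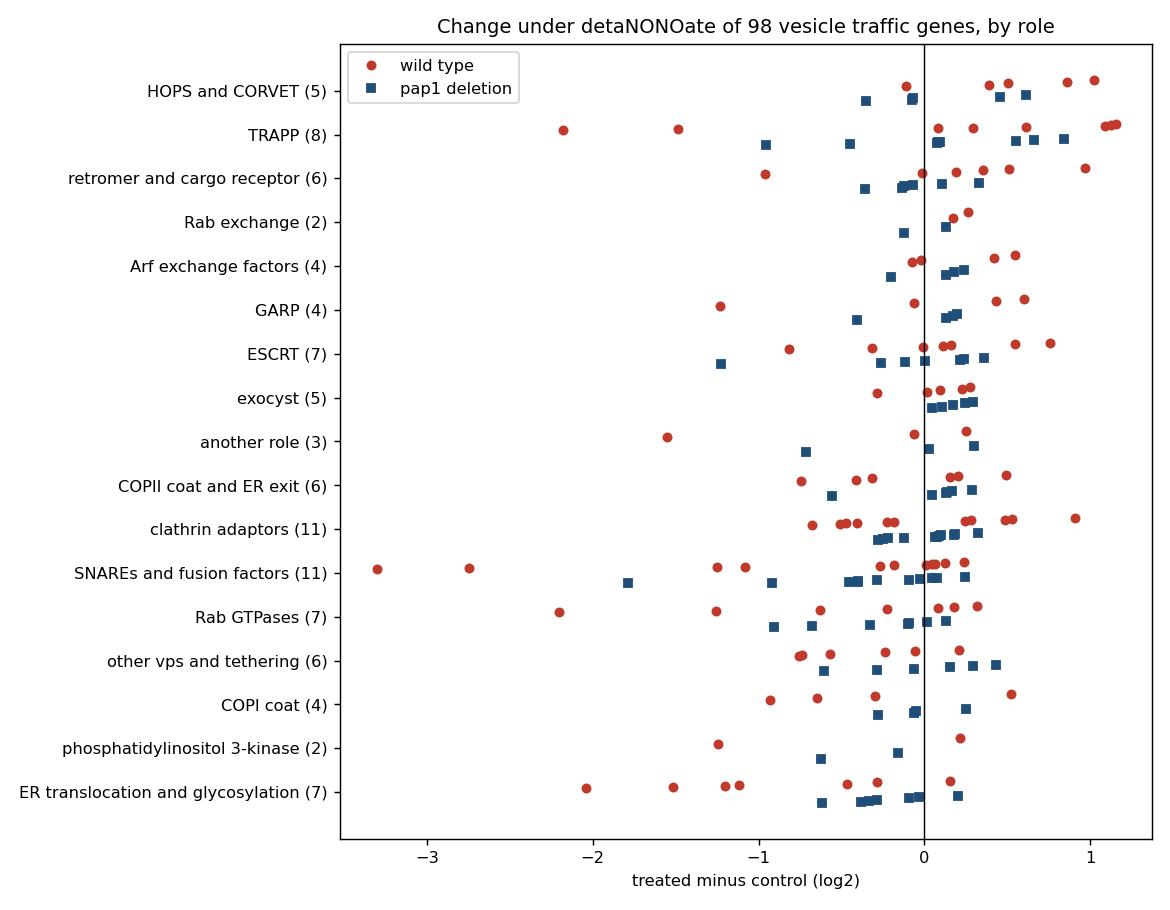
Change under detaNONOate (treated minus control, log2) of each of the 98 genes, by role, with the number of genes in parentheses; circles are wild type and squares the pap1 deletion. The translocation genes lie mostly left of 0 and the HOPS and CORVET genes mostly right of it in wild type, and psy1 and syb1 lie farthest left.

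The subunits of TRAPP and GARP changed in both directions, while no HOPS, CORVET or exocyst gene of the set fell past the threshold. In TRAPP, which activates Ypt1 and its relatives, 5 of 8 genes rose, 2 fell and 1 did not pass. The gene trs31, under background, is among those counted as risen. Among all genes 40.5% rose and 39.7% fell. The TRAPP II subunit gene trs120 read 7.44 and 7.47 in control wild type cells, 8.60 and 8.61 in treated wild type cells, 7.80 and 7.72 in control deletion cells and 8.56 and 8.65 in treated deletion cells. Both treated groups lay at one level and above both control groups. The rise in wild type was 2.22-fold (log2 1.15 ± 0.05, SE, adjusted p = 6.7e-07).

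The second TRAPP II gene trs130 (1.09 ± 0.06) and the core gene trs23 (1.12 ± 0.07) also rose. In contrast, the small core subunit genes bet5 and bet3 fell, bet5 4.54-fold (-2.18 ± 0.11) and bet3 2.80-fold (-1.49 ± 0.05). The bet5 message read 6.22 and 6.09 in control wild type cells and 3.99 and 3.96 in treated wild type cells, the latter near the background level. The core genes trs20 (0.29, past the threshold) and trs33 (0.08, not past it) moved less.

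Of 5 HOPS and CORVET genes, whose products tether membranes to the vacuole and endosomes, 4 rose and none fell in wild type (median 0.50). Over all genes 40.5% rose and 39.7% fell. The HOPS subunit gene vps33 was counted with the SNARE and fusion genes and did not pass. The shared subunit gene vps16 read 5.98 and 5.95 in control wild type cells, 6.86 and 7.11 in treated wild type cells, 6.27 and 6.33 in control deletion cells and 6.74 and 6.77 in treated deletion cells. Its rise in wild type was 2.03-fold (1.02 ± 0.08). The CORVET gene vps3 (0.86), the shared gene vps11 (0.50) and the HOPS gene vps41 (0.39) rose as well, and vps8 (-0.11) did not pass. HOPS genes named otherwise, pep3 (0.46) and vam6 (0.40), rose also. With these and vps33, and without the CORVET genes vps3 and vps8, 5 of 6 rose in wild type (median 0.43). In the deletion 1 of these 6 rose and 0 fell (median 0.10), where 35.5% of all genes rose and 26.9% fell. Of the exocyst, which tethers vesicles at the plasma membrane, sec8 (0.28) and sec6 (0.23) rose in wild type. None of its 5 genes fell, and sec10 (0.09), exo70 (0.02) and sec15 (-0.28) did not pass. In GARP, the tether for traffic from endosomes to the Golgi, vps51 (0.60) and vps52 (0.43) rose, vps54 fell 2.35-fold (-1.24 ± 0.05), and vps53 (-0.06) did not pass.

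Among coat genes, in COPI the gamma subunit gene sec21 (-0.93), the beta' gene sec27 (-0.65) and the beta gene sec26 (-0.30) fell, while the epsilon gene sec28 rose by 0.52. In COPII the outer coat genes sec31 (-0.75) and sec13 (-0.41) and the inner coat gene sec231 (-0.31) fell. The other genes of the set there rose, sec16 (0.49), whose product organizes the exit sites, sec24 (0.20) and sec2302 (0.15). Of coat genes that the naming rule does not reach, the COPII gene sar1 (-1.34) and the COPI gene ret3 (-0.88) fell. The COPI gene ret2 (-0.04) did not pass. The Arf exchange factor genes sec72 (0.55) and sec71 (0.42) rose, and sec73 (-0.07) and sec74 (-0.02) did not pass.

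Each of the clathrin adaptors AP-1, AP-2 and AP-3 held both rising and falling subunits. Of the 11 adaptor genes 5 rose and 6 fell in wild type. Among all genes 40.5% were called higher and 39.7% lower, so calls in both directions were common. In AP-3, which sorts cargo to the vacuole, the large subunit gene apl5 read 7.00 and 6.95 in control wild type cells, 7.91 and 7.84 in treated wild type cells, 6.81 and 6.80 in control deletion cells and 7.01 and 6.97 in treated deletion cells. Its rise in wild type was 1.87-fold (0.91 ± 0.04), apl6 rose by 0.28, and the medium and small subunit genes apm3 (-0.51) and aps3 (-0.47) fell. In AP-1 apm1 (-0.68) and apl4 (-0.18) fell and apl2 (0.53) rose. In AP-2 aps2 (0.49) and apm4 (0.24) rose and apl3 (-0.41) and apl1 (-0.23) fell. Of clathrin and adaptor genes that the naming rule does not reach, vas2 (-0.82), clc1 (-0.65) and chc1 (-0.25) fell, and ent1 (-0.03) did not pass.

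**Figure D3:**
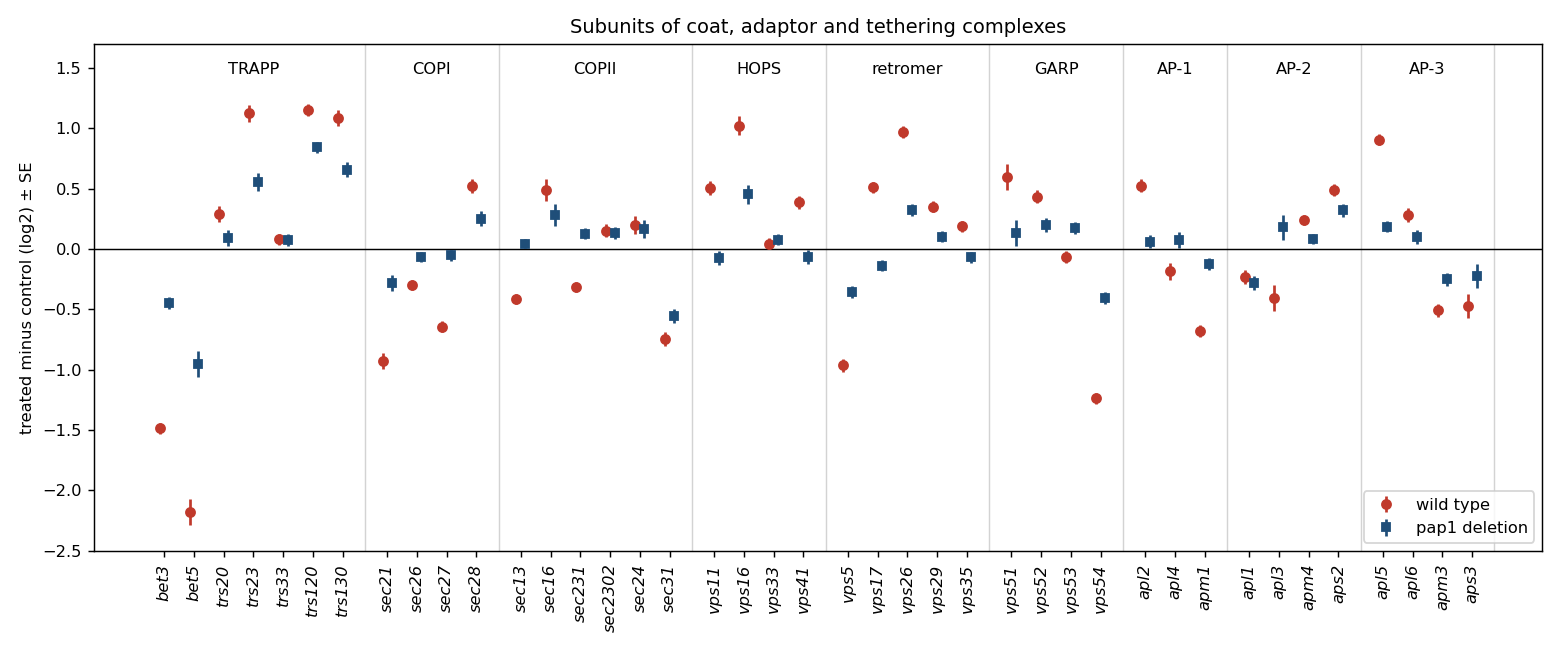
Change under detaNONOate (treated minus control, log2; bars are limma's moderated standard errors) for subunits of 9 complexes in wild type (circles) and the pap1 deletion (squares). In TRAPP the subunits run from bet5 at -2.18 to trs120 at 1.15 in wild type, and AP-1, AP-2 and AP-3 each have subunits on both sides of 0.

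Retromer, which returns receptors from endosomes to the Golgi, rose in 4 of its 5 genes in wild type, beside 40.5% of all genes. The vps26 message read 6.88 and 6.85 in control wild type cells, 7.87 and 7.80 in treated wild type cells, 6.90 and 6.82 in control deletion cells and 7.16 and 7.21 in treated deletion cells. Treated arrays lay above control arrays in both strains, and the rise in wild type was 1.96-fold (0.97 ± 0.05). The sorting nexin gene vps17 rose by 0.51, vps29 by 0.35 and vps35 by 0.19, but vps5, the gene of the other sorting nexin, fell by 0.96 on the log2 scale. The cargo receptor gene vps10 (-0.02) did not pass. In the deletion 1 of the 5 retromer genes rose and 2 fell (median -0.069), where 35.5% of all genes rose and 26.9% fell. With the index as a covariate vps17 was called lower (-0.71, limma adjusted p = 0.0150). In that fit vps35 (-0.30), vps26 (-0.28), vps29 (-0.14) and vps5 (0.17) did not pass.

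Of the 7 ESCRT genes, which form vesicles inside endosomes, vps36 (0.76) and the ATPase gene vps4 (0.55) rose, and vps20 fell (-0.82). The shares of all genes were 40.5% risen and 39.7% fallen. The ESCRT genes vps28 (0.16), vps32 (0.11), vps24 (-0.01) and vps25 (-0.32) did not pass. In the phosphatidylinositol 3-kinase complex vps38 fell 2.37-fold (-1.25 ± 0.10) and the regulatory kinase gene vps15 rose by 0.22. The dynamin gene vps1 (-0.75) and the lipid transfer gene vps1302 (-0.74) fell, as did vps55 (-0.24) and vps1301 (-0.57), whose treated mean of 3.76 was near background. The genes vps66 (-0.05) and sec39 (0.21) did not pass. Of those with a role outside traffic, aps1 fell 2.93-fold (-1.55 ± 0.07), vps71 rose by 0.25 and trs1 (-0.06) did not pass.

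Of 58 vesicle traffic genes that the naming rule does not reach, 40 were measured. In wild type 24 of them fell, 7 rose and 9 did not pass (median -0.31), beside the 40.5% risen and 39.7% fallen among all genes. The Golgi syntaxin gene sed5 fell 6.25-fold (-2.64 ± 0.08), the retrieval receptor gene rer1 6.09-fold (-2.61 ± 0.04) and the Arf GTPase-activating gene glo3 3.88-fold (-1.96 ± 0.08). The largest rises were those of the SNARE gene vti1 (1.16 ± 0.05), the ESCRT gene sst6 (0.85) and the Golgi SNARE gene sft1 (0.80). In the deletion 22 of the 40 fell, 5 rose and 13 did not pass (median -0.20), where 35.5% of all genes rose and 26.9% fell. The falls were led by sed5 (-1.05), rer1 (-0.94) and the Rab gene ryh1 (-0.73). Among the rises there were vti1 (0.45), sly1 (0.40), whose product binds Golgi syntaxin, and sft1 (0.40).

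Without Pap1, psy1 again fell most and trs120 rose most, by less than in wild type. In the pap1 deletion 26 of 98 genes rose, 32 fell and 40 did not pass, beside 62.4% called over all genes, 35.5% higher and 26.9% lower. The median change was 0.011 in the set and 0.047 over all genes. Of the set psy1 and vps20 fell by 2-fold or more and none rose that far, where the shares over all genes were 2.35% and 0.587%. Without the second deletion control array 14 rose and 27 fell, and without the second deletion treated array 17 rose and 30 fell. The fall of psy1 was 3.46-fold (-1.79 ± 0.08, adjusted p = 6.3e-06). It was followed by vps20 (2.34-fold, -1.22 ± 0.06), bet5 (-0.95), syb1 (-0.92), ypt2 (-0.90), aps1 (-0.72), ypt7 (-0.68), vps38 (-0.62), sec62 (-0.62) and vps1302 (-0.60).

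The ESCRT-III gene vps20 was the largest fall in the deletion after psy1. It read 7.21 and 7.33 in control wild type cells, 6.46 and 6.44 in treated wild type cells, 7.33 and 7.27 in control deletion cells and 6.02 and 6.14 in treated deletion cells. The control groups overlapped, and the deletion treated arrays were the lowest. Rises in the deletion were led by trs120 (1.79-fold, 0.84 ± 0.05), trs130 (0.66), vps3 (0.61), trs23 (0.56) and vps16 (0.45). Then came vps1301 (0.43), vps36 (0.36), vps26 (0.33), aps2 (0.32) and trs1 (0.30).

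In the deletion 35.5% of all genes rose, 26.9% fell and 62.4% were called. By role, 4 of 7 translocation genes fell and 1 rose there, and of the SNARE and fusion genes 6 of 11 fell and 1 rose. In TRAPP 3 of 8 rose and 2 fell, near the shares of all genes. Among adaptors 7 of 11 did not pass. Of the HOPS and CORVET genes, vps33 left out, 2 of 5 rose and 1 fell.

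Of the 39 genes that rose in wild type, 18 rose in the deletion, 3 fell and 18 did not pass. The 3 were vps17 (-0.14), vps15 (-0.16) and vps901 (-0.12), with limma adjusted p-values of 0.031, 0.047 and 0.048. Of the 39 that fell in wild type, 25 fell in the deletion, 2 rose and 12 did not pass, and the 2 were sec231 (0.13) and vps1301 (0.43). The share with the same call was 46.2% of the rising and 64.1% of the falling genes, where over all genes it was 67.6% and 57.2%. The change was smaller in size in the deletion for 37 of the 39 rising and 35 of the 39 falling genes, beside 81.4% and 89.6% over all genes. Choosing genes by their call in wild type favours a smaller change in the other strain. Sizes were compared without regard to sign. Across the 98 genes the changes in the 2 strains, which share no array, had a Pearson correlation of 0.86 and a Spearman correlation of 0.78, and over all genes 0.79 and 0.76. Genes are not independent replicates, and both strains shared the direction of the index shift.

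The difference in response was tested as the change in the deletion minus the change in wild type. It was above 0 for 34 and below 0 for 26 of the 98 genes past the threshold, and 38 did not pass. Over all genes 59.1% were called, 33.9% above and 25.1% below 0. After median centring the split was 27 and 37, and with quantile normalization 27 and 40, so the balance of directions depends on scaling. The set had 8 differences of 2-fold or more, all above 0, where over all genes 5.97% were that far above and 0.587% that far below 0. Of these genes vps1301 fell in wild type and rose in the deletion, and the others fell less in the deletion, with syb1 (1.83 ± 0.12), psy1 (1.51 ± 0.11), sec62 (1.43 ± 0.06), ypt2 (1.30 ± 0.08) and bet5 (1.23 ± 0.15) in front. Below 0 were foremost apl5 (-0.72 ± 0.06), vps17 (-0.65 ± 0.06), vps26 (-0.64 ± 0.07), vps11 (-0.58 ± 0.08) and trs23 (-0.57 ± 0.10), all of which rose in wild type.

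**Figure D4:**
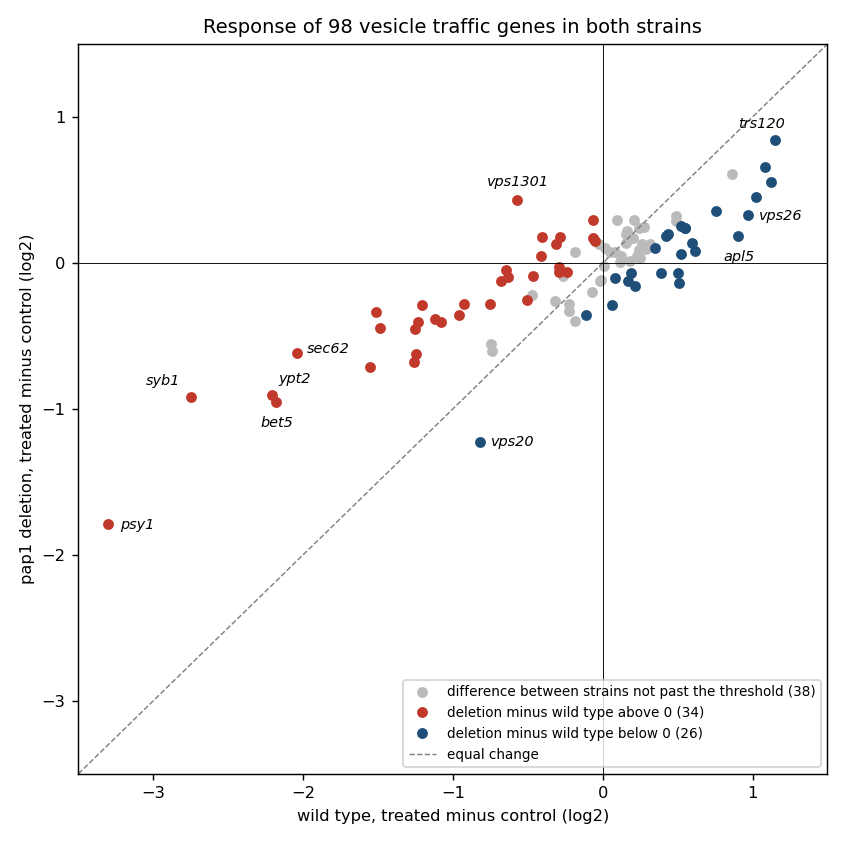
Treated minus control (log2) in the pap1 deletion against wild type for the 98 genes; colours give the test of the difference between the strains and the dashed line marks equal change. Genes that fell in wild type lie mostly above the line and genes that rose mostly below it, and psy1 lies at -3.30 and -1.79.

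The vps11 message illustrates a change seen past the threshold in 1 strain. It read 9.69 and 9.83 in control wild type cells, 10.29 and 10.23 in treated wild type cells, 9.78 and 9.77 in control deletion cells and 9.66 and 9.74 in treated deletion cells. The wild type treated arrays lay above all others, and the deletion difference of -0.07 did not pass. For vps17 the readings were 8.67 and 8.75, 9.22 and 9.23, 8.86 and 8.83, and 8.73 and 8.69 in the same order of groups. In vps17 treatment was followed by a rise in wild type and a small fall in the deletion. These differences went with an index shift of 2.01 in wild type cells against 0.99 in deletion cells.

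In control cells loss of pap1 was accompanied by small differences. Compared with wild type, 11 of the 98 genes were higher and 11 lower, and 76 did not pass, where over all genes 17.4% were called, 8.22% higher and 9.15% lower. None of the set differed by 2-fold, beside 0.0345% higher and 0.138% lower by that much over all genes. After median centring 16 were higher and 7 lower. The lower genes were led by bet5 (-0.63 ± 0.11, adjusted p = 0.0111), ypt2 (-0.58 ± 0.06), psy1 (-0.52 ± 0.08, adjusted p = 0.00774), sec31 (-0.44 ± 0.06) and bet1 (-0.34 ± 0.04). The higher genes were led by vps3 (0.36 ± 0.09), vps36 (0.34 ± 0.06), vps16 (0.34 ± 0.08), sec2 (0.31 ± 0.07) and trs120 (0.30 ± 0.05). The syb1 difference of -0.23 did not pass (adjusted p = 0.104).

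These calls rest on few arrays: without one of the wild type control arrays 4 or 6 genes were called, and without one of the deletion control arrays 4 or 6. The psy1 call was lost without either wild type control array or without the second deletion control array (adjusted p = 0.0536, 0.0532 and 0.0555). The comparison shares its wild type control arrays with the treatment comparison. The index was 0.31 higher in deletion control than in control wild type cells.

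In treated cells the messages of syb1, sec62, psy1 and sec61 stood higher in the deletion than in wild type, and those of apl5 and vps26 lower. Relative to treated wild type cells 41 of the 98 genes were higher, 30 lower and 27 did not pass, beside 65.8% called over all genes, 39.3% higher and 26.5% lower. By 2-fold or more 2 genes were higher and none lower, where the shares were 4.04% and 0.518%. With quantile normalization 30 were higher and 37 lower. The highest were syb1 (3.03-fold, 1.60 ± 0.08), sec62 (2.34-fold, 1.23 ± 0.04), psy1 (0.99 ± 0.08), sec61 (0.94 ± 0.07) and vps54 (0.92 ± 0.05). The lowest were apl5 (-0.89 ± 0.04), vps26 (-0.65 ± 0.05), vps11 (-0.56 ± 0.06) and vps17 (-0.51 ± 0.04). The index was 0.71 lower in these deletion arrays.

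Neither length nor level ordered the responses closely. Across the 98 genes the Spearman correlation of the change in wild type was 0.16 with the length of the gene and -0.13 with its mean level, and over all 2896 genes -0.10 and -0.10. Long genes were found at both ends, with the 5791-base trs130 among the rises and the 6293-base sec31 among the falls. Short ones were too, with the 515-base bet5 and the 715-base trs23. Lengths are those of the reference gene models and not of the stretch that a probe set covers.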

How the data were processed

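Gene expression was measured on 8 single-colour Affymetrix arrays. The deposited values are log2 summaries per probe set. The submitters' processing notes name RMA, with no version. They were used as deposited. RMA aligns the distributions of arrays, so a shift common to most genes would not be seen. Of 10928 probe sets, 2914 belonged to a single S. pombe gene. Symbols were updated through gene identifiers (113 genes), and for 14 genes with several probe sets that of the highest mean was kept; no gene of the set had more than 1. Groups and replicate numbers came from sample titles.

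Fits used R 4.3.3 and limma 3.58.1 (lmFit with 1 mean per group, eBayes, 4 residual and 3.07 prior degrees of freedom) over all 2896 genes, with Benjamini-Hochberg adjustment over them. Errors are moderated standard errors. They and the p-values rest on 1 spread per gene, pooled over the 4 groups and moderated over genes, and not on the 2 groups compared alone. With 2 arrays per group the precision is limited. On simulated data for wild type treatment (2896 genes, 200 changed) 70.2%, 91.9% and 100% of changes of 0.3, 0.6 and 1 were recovered, and 10 unchanged genes were called. The simulated arrays had no index shift and most genes were left unchanged, whereas 80.2% of genes were called in the data. These rates therefore need not hold for the data.

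The genes, role groups and the list of 58 further genes were chosen with earlier results of these data known. Genes named in each comparison were the largest changes each way past the threshold whose arrays did not overlap between groups (10 for treatment, 5 for other comparisons, for the difference in response without that condition), psy1 and syb1, and the largest and smallest in each role. Other genes of the set are given to account for every member. Alternatives were other scalings, filters, probe set choices, a variance trend, a replicate block, each array left out and the 3' to 5' index as a covariate. No sequence was used here.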

Additional observations from a re-analysis of the deposited data

Results flagged for a closer look

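In limma's test of the difference itself (deletion minus wild type, log2), responses differed between the strains for 61.2% of the set. Over all genes the share was 59.1%, so such a difference was common and not special to the genes named here. The 10 genes given are the 5 largest each way and so were selected by size. Above 0 were syb1 (1.83, adjusted p = 4.2e-05), psy1 (1.51), sec62 (1.43), ypt2 (1.30) and bet5 (1.23, adjusted p = 0.00044), each of which fell in both strains. Below 0 were apl5 (-0.72), vps17 (-0.65), vps26 (-0.64), vps11 (-0.58) and trs23 (-0.57, adjusted p = 0.0026). Wild type vps17 changed by 0.51 and the deletion by -0.14, both past the threshold. The index shift was 2.01 in wild type against 0.99 without pap1, and its part in these differences was not tested.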

How the results depend on the processing

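Of 93 named single-gene calls, 0 changed sign and 16 lost the call in at least 1 alternative other than the index fit. Most of these were named as the largest changes past the threshold. Their signs could therefore hardly change, and they do not speak for the other genes of the set. With the 3' to 5' index as a covariate and 1 treatment effect for both strains, 20 genes of the set were called (9 higher, 11 lower), psy1 was at -0.43 (adjusted p = 0.263) and syb1, with the sign changed, at 0.71 (adjusted p = 0.150). Of the 39 genes that rose and the 39 that fell in wild type, 29 each had the other sign in that fit. It has no term for a difference between the strains in response, and the index shift was 2.01 in wild type against 0.99 in the deletion. A gene that changed much less in the deletion can therefore take the other sign there. These signs are not wild type changes corrected for the index, and the share over all genes was not counted. Among the risen 6 were called lower and 1 higher, and among the fallen 6 higher and 3 lower. A 2-fold minimum left 19, 2, 8, 0 and 2 calls for treatment in wild type, treatment in the deletion, the difference in response, the strains in control and the strains in treated cells. With all probe sets tested 38 differences in response and 2 control differences were called, and psy1 was lost in the latter (-0.52, adjusted p = 0.0517). Leaving out 1 array gave 70 to 78, 41 to 59, 47 to 61, 4 to 27 and 58 to 67 calls in the same order. The control difference of psy1 then ranged from -0.57 to -0.47. A variance trend added syb1 (-0.23, adjusted p = 0.0193).

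The replicate block called 13 genes instead of 22 between the strains in control cells, and the counts stayed within 1.5 times in the other comparisons. Arrays that share a number did not deviate together (correlation -0.040 in wild type and -0.26 in the deletion, over genes), and the labels say that control and treated sets shared a flask but not that a replicate number marks one.

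In wild type some genes that did not pass changed sign. Median centring put trs1 at 0.021, vps66 at 0.031, sec74 at 0.063, vps10 at 0.069, vps24 at 0.077 and vps53 at 0.022. Quantile normalization put trs1 at 0.15 (adjusted p = 0.0103), vps10 at 0.13 (adjusted p = 0.0150), vps66 at 0.074 and vps24 at 0.098. Without 1 array sec74 ranged from -0.068 to 0.024, vps24 from -0.067 to 0.051, vps45 from -0.025 to 0.042 and exo70 from -0.23 (adjusted p = 0.0386, without the first treated array) to 0.27.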
